A study of Homo sapiens with 20 samples.

Results

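Collagens, laminins and fibrillins were taken as every gene whose symbol in the array annotation follows the naming pattern of a collagen chain (COL), of a laminin chain (LAMA, LAMB or LAMC) or of FBN1 and FBN2. This rule reads symbols and no measured value. It gave 55 of the 19775 named genes, read by 141 of 41097 probe sets with a single gene. They were 11 fibrillar collagen chains, 6 chains of type IV, 5 of type VI, 10 fibril-associated chains, 11 other collagens, 10 laminin chains and 2 fibrillins.

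Transcript levels were measured on 20 whole-genome arrays in differentiated Caco-2 cells, a line from a human colon carcinoma that is used as a model of absorptive intestinal epithelium. In the probiotic set, 3 groups were cultured for 8 h with live cells of Lactobacillus salivarius Ls-33, of Bifidobacterium lactis 420 or of Lactobacillus acidophilus NCFM, at 20 to 100 bacteria for each Caco-2 cell. Another 3 groups received cell-free supernatant of the same strains for 24 h at 10% of the medium, and the medium of this set was given for 8 h, with 2 arrays in each of these 7 groups. In the E. coli set, 3 arrays came from cells with 5% supernatant of Escherichia coli O157:H7 for 24 h and 3 from cells with medium for 24 h. Each treatment was set against the medium of its own set, so that for the probiotic supernatants the exposure (24 h against 8 h) cannot be told apart from the treatment. Labelling started from 5 µg of RNA in the probiotic set and 1 µg in the E. coli set, and a control with uninoculated broth was not analysed here. All groups are the same cell line on culture inserts, and paired arrays of the probiotic set were described as duplicates, so their p-values cover the spread between arrays, which may be technical.

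As background, collagens are long triple-helical proteins of the extracellular matrix. Fibrillar chains build the banded fibrils of connective tissue, fibril-associated chains decorate these fibrils, and type VI forms beaded filaments near cells. Type IV collagen and the laminins, each a heterotrimer of an alpha, a beta and a gamma chain, form the networks of the basement membrane on which intestinal epithelium rests. Fibrillins form the microfibrils that carry elastin and that bind latent TGF-beta. In the gut wall most interstitial collagen comes from mesenchymal cells, while epithelial cells make laminin chains themselves.

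The promoter windows of 4 members that carry the results are shown, because FBN2 and COL4A2 had the largest rises, COL4A5 was called higher against medium in each of the 7 comparisons and COL12A1 was called lower in each. The probiotic comparisons among these share the 2 arrays of 8 h medium, so they are not independent, and those of the supernatants also differ from it in time. Each window holds 250 bases before and 50 after the start of the gene, 5′ to 3′ on the gene's strand, from RefSeq on GRCh38.p14. FBN2 lies at chr5:128538196-128538495 on the minus strand, COL4A2 at chr13:110307034-110307333 on the plus strand, COL4A5 at chrX:108439588-108439887 on the plus strand and COL12A1 at chr6:75206004-75206303 on the minus strand. Capitals mark matches to the GC box GGGCGG, on either strand.
FBN2: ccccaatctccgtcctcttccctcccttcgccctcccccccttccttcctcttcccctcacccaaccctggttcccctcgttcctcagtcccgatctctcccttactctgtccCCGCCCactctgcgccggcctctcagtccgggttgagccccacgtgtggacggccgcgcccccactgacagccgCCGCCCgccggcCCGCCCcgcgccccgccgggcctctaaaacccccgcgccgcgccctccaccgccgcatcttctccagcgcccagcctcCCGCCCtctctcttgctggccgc
COL4A2: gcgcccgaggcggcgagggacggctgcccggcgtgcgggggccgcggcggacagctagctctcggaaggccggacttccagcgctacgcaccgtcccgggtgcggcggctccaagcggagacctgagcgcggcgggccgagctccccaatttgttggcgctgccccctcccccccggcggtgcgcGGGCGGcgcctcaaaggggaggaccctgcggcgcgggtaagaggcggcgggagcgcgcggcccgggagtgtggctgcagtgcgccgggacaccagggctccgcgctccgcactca
COL4A5: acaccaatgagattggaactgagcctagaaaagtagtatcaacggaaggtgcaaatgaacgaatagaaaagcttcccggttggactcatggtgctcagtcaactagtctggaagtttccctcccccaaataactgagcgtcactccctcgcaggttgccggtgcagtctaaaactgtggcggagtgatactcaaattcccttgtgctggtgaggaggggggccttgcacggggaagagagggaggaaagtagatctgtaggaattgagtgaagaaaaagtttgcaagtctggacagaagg
COL12A1: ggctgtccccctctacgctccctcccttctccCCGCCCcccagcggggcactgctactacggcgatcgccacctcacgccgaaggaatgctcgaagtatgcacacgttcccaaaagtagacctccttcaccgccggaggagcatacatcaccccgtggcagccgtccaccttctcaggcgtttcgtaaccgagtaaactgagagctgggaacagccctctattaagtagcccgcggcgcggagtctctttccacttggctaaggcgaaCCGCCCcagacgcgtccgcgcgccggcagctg
The FBN2 window held 4 GC boxes, the COL12A1 window 2, the COL4A2 window 1 and the COL4A5 window none. A GC box stood in 45% of the 35116 windows of the table, the TATA box TATAAA in 11.5% and the AP-1 site TGANTCA in 7.71%, each searched on both strands. Neither of these other motifs was found in the 4 windows shown. Windows were found for 41 of the 55 members. Type IV genes lie head to head in pairs, and the start sites of COL4A1 and COL4A2 were 127 bases apart, so that 226 bases of their windows overlapped. The start sites of COL4A5 and of the nearer COL4A6 start were 380 bases apart.

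Median log2 signal was between 2.66 and 2.72 in the 20 arrays, and arrays of a group correlated across probe sets at 0.994 to 0.997 over 13 pairs. Of 14 epithelial markers with a probe set, 13 reached the floor described below in each group of the probiotic set and 11 in each group of the E. coli set. SLC5A1 was under it in both sets, and FABP2 and APOA1 in the E. coli set. Of 10 fibroblast markers 7 or 8 reached the floor in each group, and DCN and FAP were under it in all 9. Of 5 endothelial markers 2 reached it in each group but 24 h medium, where 1 did, and CDH5, VWF and KDR were under it in all 9. Of 4 leukocyte markers 2 reached it in all 9, and PTPRC and CD3E were under it. The summed log2 signal of the fibroblast markers was 51.2 to 52.2 in the co-cultures, 47.1 to 49.8 in the probiotic supernatants and 48.8 to 49.1 with 8 h medium. It was 50.1 to 51.5 with E. coli supernatant and 48.1 to 48.5 with 24 h medium. The epithelial sum was 117.5 to 120.8 in the co-cultures, 122.8 to 124.6 in the supernatants and 121.4 to 123.4 with 8 h medium, and 116.1 to 116.8 with E. coli supernatant, against 117.4 to 117.7 with its medium. The endothelial sum was 17.9 to 18.6 in the co-cultures, 17.7 to 19.1 in the supernatants and 18.1 to 18.5 with 8 h medium, and 16.1 to 16.9 with E. coli supernatant, against 17.1 to 18.2. The leukocyte sum was 11.7 to 12.52 in the co-cultures, 12.2 to 13.2 in the supernatants and 11.9 to 12.8 with 8 h medium, and 12.6 to 13.3 with E. coli supernatant, against 11.02 to 11.8. For beta-actin the 3′ minus 5′ signal, which grows as RNA degrades, was 1.08 to 1.54 in the co-cultures, 1.02 to 1.11 in the supernatants and 0.80 to 0.88 with 8 h medium. With E. coli supernatant it was 2.12 to 2.22, against 1.90 to 2.17 with its medium. The part of marker sums and RNA integrity in the changes below was not tested. In cultures measured in bulk, fewer cells of a type and less RNA per cell cannot be told apart.

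The floor was the 40th percentile of all named genes in an array set, a log2 signal of 2.74 in the probiotic set and 2.78 in the E. coli set. By group means, 24 members were at or above the floor in all 9 groups, 20 were under it in all 9, and 11 were mixed. Under the floor throughout were the fibrillar COL11A1 and COL24A1, the kidney and eye type IV chains COL4A3 and COL4A4, and COL6A5 and COL6A6. So were COL9A1, COL9A2, COL19A1 and COL22A1 of the fibril-associated class, LAMB4, LAMC3 and FBN1. The others were COL8A1, COL8A2, COL10A1, COL13A1, COL15A1, COL23A1 and COL25A1. Of these, COL13A1 reached the floor with another of its probe sets. Laminins had 6 of 10 and fibrillar collagens 8 of 11 members at or above the floor in all groups, and the other collagens 2 of 11. Mixed members were COL1A2, COL4A1, COL4A2, COL9A3, COL14A1, COL20A1, COL26A1, COL28A1, LAMA2, LAMA4 and FBN2.

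**Figure D1:**
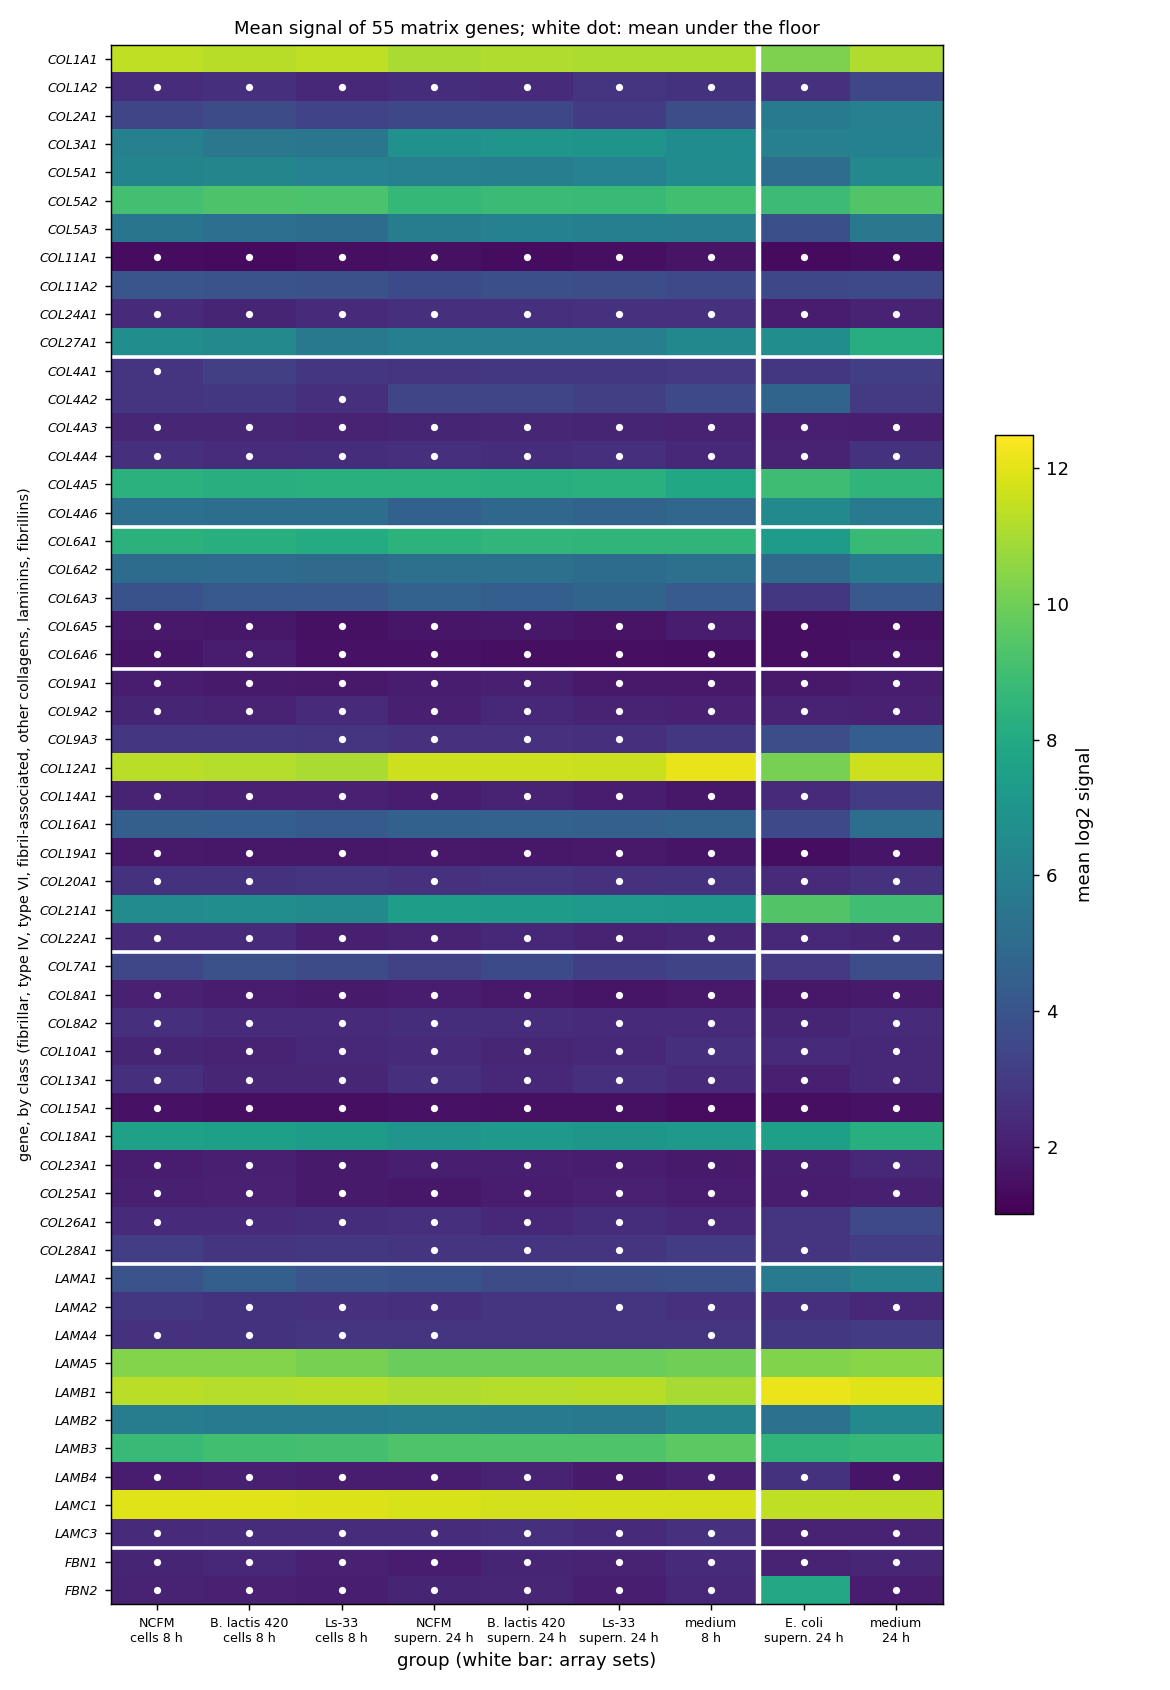
Mean log2 signal of the 55 genes (rows, by class) in the 9 groups (columns), each treatment left of its medium; the white bar parts the array sets. White dots mark means under the floor, which 20 genes show in all 9 groups, and FBN2 is bright with E. coli supernatant alone among its groups.

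Signals of different probe sets do not rank transcripts, but the brightest members lay far above the floor. LAMC1, the gamma chain of most laminins, and LAMB1, a beta chain, had the highest overall means, 11.73 and 11.40. Next came COL12A1 at 11.37, COL1A1 at 11.08 and LAMA5, the main alpha chain of adult intestinal basement membrane, at 10.15. The COL1A1 level is that of its brightest probe set. With 8 h medium its other probe sets read 8.50 and 8.53, 4.97 and 5.20, 3.43 and 4.18, and 2.47 and 2.21. The last of these was under the floor, so the level of COL1A1 depends on the probe set read. Some levels also differed between the media of the array sets. COL21A1 averaged 7.15 with 8 h medium and its 3 arrays with 24 h medium read 8.91, 8.88 and 9.12. Time, array set and RNA input cannot be told apart there, so no test was made between sets.

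Against medium, 27 members passed the filter on mean signal in the probiotic set and 32 in the E. coli set, and each was tested in a limma fit over 11865 genes. With E. coli supernatant 22 of 32 members were called at an adjusted p under 0.05, 6 higher and 16 lower, where 64.1% of all tested genes were called (36.3% higher and 27.8% lower). These counts hold FBN2 (higher) and COL1A2 (lower), each with a mean under the background floor in 1 of the groups, so that they entered the test through the other. The median log2 change of the 32 was -0.42, against 0.05 over all tested genes. NCFM cells gave 11 of 27 called, 6 higher and 5 lower, against 35.3% of all genes (16.8% higher, 18.4% lower). With B. lactis 420 cells the calls were 14, 7 higher and 7 lower, against 35.3% of all genes (18.3% and 16.9%). Ls-33 cells gave 13 calls, 4 higher and 9 lower, against 38.7% (19.4% and 19.3%). The 9 hold COL4A2, whose mean with Ls-33 cells was under the floor, so that it entered the test through other groups. Fewer members were called with the supernatants, 4 with NCFM (1 higher), 5 with B. lactis 420 (2 higher) and 6 with Ls-33 (2 higher). The share of all genes called with them was 11.3% (5.29% higher, 6% lower), 15.2% (5.98% and 9.22%) and 16.6% (8.48% and 8.14%) in the same order of strains. The median log2 changes of the members were -0.15 for NCFM cells, -0.09 for B. lactis 420 cells and -0.21 for Ls-33 cells, and -0.12, -0.02 and -0.11 with their supernatants, while medians over all genes were within -0.04 to 0.01. As a share of members tested, the calls in co-culture were 40.7% (NCFM), 51.9% (B. lactis 420) and 48.1% (Ls-33), those with the supernatants 14.8%, 18.5% and 22.2% in that order of strains, and those with E. coli supernatant 68.8%. As totals of both directions, the E. coli and supernatant shares lay within a few points of the background. By direction the E. coli calls did not, since 16 of 32 fell and 6 rose, against 27.8% and 36.3% of all genes. Nothing particular to these genes is read from any of these shares. All probiotic comparisons share the 2 arrays of 8 h medium, so a departure of these arrays enters each of them.

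**Figure D2:**
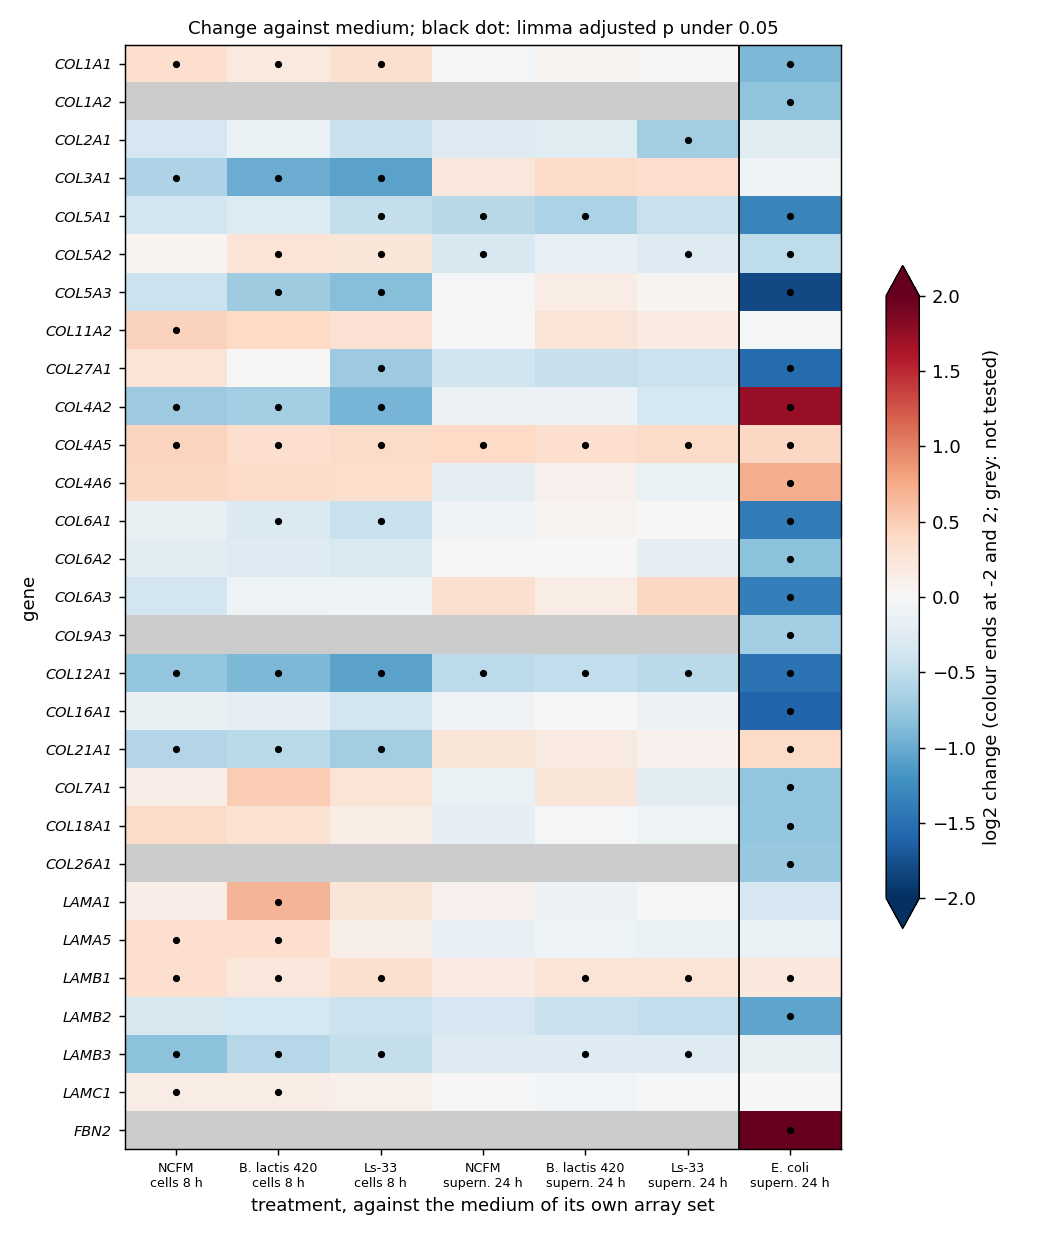
Log2 change against the medium of the same array set for the members called in at least 1 comparison (rows), with treatments as columns; black dots mark a limma adjusted p under 0.05 and grey cells were not tested. COL4A5 is higher and COL12A1 lower in all 7 columns, and the E. coli column holds the largest changes, with FBN2 beyond the end of the colour scale.

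Among laminin chains, LAMB1 and LAMC1 were bright in all arrays and moved little, while the beta chains LAMB2 and LAMB3 were lower in some comparisons. LAMB3, a beta chain of the epithelial laminin that anchors hemidesmosomes, had log2 signals of 8.80 and 8.74 with NCFM cells, 9.02 and 9.01 with B. lactis 420 cells and 9.10 and 9.11 with Ls-33 cells, against 9.47 and 9.71 with 8 h medium. All co-culture arrays were below both medium arrays. The changes were -0.82, -0.58 and -0.48 in that order (SE 0.083, limma adjusted p 2.84e-07, 2.28e-05 and 1.28e-04). With the supernatants LAMB3 read 9.25 to 9.41, 9.29 to 9.38 and 9.31 to 9.36, with changes of -0.26 for each strain, and the adjusted p was 0.050 for NCFM, 0.044 for B. lactis 420 and 0.041 for Ls-33. The B. lactis 420 and Ls-33 supernatant calls were lost without replicate 2 of the medium (-0.14 in both, adjusted p 0.41 and 0.40), and on leaving out any of 9 and of 5 arrays in all. E. coli supernatant gave 8.43, 8.63 and 8.48, against 8.87, 8.46 and 8.63 with medium, and these groups overlapped.

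LAMB2, a beta chain of neuromuscular, vascular and glomerular basement membranes, read 5.34, 5.34 and 5.35 with E. coli supernatant, against 6.58, 6.11 and 6.52 with medium. It was lower in all 3 treated arrays, with a change of -1.06 ± 0.15 (SE, adjusted p 6.83e-05). The probiotic changes of LAMB2 lay between -0.50 and -0.32, none of them called. LAMA1, an alpha chain of embryonic basement membranes, read 4.37 and 4.59 with B. lactis 420 cells, against 3.59 and 4.003 with medium, a rise of 0.68 ± 0.19 (adjusted p 0.010). This call was lost without replicate 1 of the medium (0.47, adjusted p 0.14), or replicate 2 of the co-culture (0.57, adjusted p 0.087). LAMA1 changed by 0.13 with NCFM cells and 0.24 with Ls-33 cells, not called.

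The other laminin calls were small. In the co-cultures LAMB1 rose by 0.34 (NCFM), 0.23 (B. lactis 420) and 0.32 (Ls-33). It rose by 0.26 and 0.28 with B. lactis 420 and Ls-33 supernatant and by 0.21 with E. coli supernatant. Its second probe set gave -0.08, -0.02 and -0.08 in the co-cultures and 0.06 with E. coli supernatant, none called. The call with B. lactis 420 cells was lost without replicate 1 of the medium (0.21), and those with the supernatants without replicate 2 of the treated arrays (0.22 in both). The B. lactis 420 supernatant call was also lost without replicate 1 of the medium (0.24). The E. coli call was lost without replicate 2 or 3 of the treated arrays (adjusted p 0.052 and 0.057). LAMA5 rose by 0.34 with NCFM cells and by 0.34 with B. lactis 420 cells, but the calls were lost without replicate 2 of the medium, where the rise was 0.17 in both. The NCFM call was also lost without replicate 1 of the co-culture (0.25). LAMC1 rose by 0.15 with NCFM cells and by 0.15 with B. lactis 420 cells, and each call was lost without either medium array. Without replicate 1 of the B. lactis 420 co-culture its rise was 0.049 (adjusted p 0.57). LAMA4 was tested with E. coli supernatant, with a change of -0.14 that was not called. LAMA2, a muscle and nerve laminin chain, did not pass the filter in either set.

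Of the type IV chains tested with E. coli supernatant, COL4A2, COL4A5 and COL4A6 rose, and COL4A1, which lay close to the floor, was not called. COL4A2, which assembles with COL4A1 in nearly all basement membranes, read 4.48, 4.93 and 4.65 with E. coli supernatant, against 2.99, 3.08 and 2.79 with medium. These medium arrays lay close to the floor of 2.78. All treated arrays were above all medium arrays, by 1.74 ± 0.16 on the log2 scale (SE, 3.33-fold, adjusted p 1.38e-06). In the co-cultures COL4A2 read 2.64 and 2.95 with NCFM, 2.88 and 2.81 with B. lactis 420 and 2.44 and 2.76 with Ls-33, against 3.57 and 3.48 with medium. It fell by 0.73 with NCFM and by 0.68 with B. lactis 420 (limma adjusted p 0.0027 and 0.00485), close to the floor. With Ls-33 cells the mean was under the floor, so that COL4A2 entered the test through other groups. No test of it is used as support there, and a bound from the floor is at least 1.72-fold lower. The supernatants gave changes of -0.12, -0.12 and -0.35, none called. The second COL4A2 probe set was under the floor in all 20 arrays.

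COL4A1 read 2.79, 2.87 and 2.94 with E. coli supernatant, against 3.15, 3.26 and 2.95 with medium, a change of -0.25 (adjusted p 0.12). COL4A6, which pairs with COL4A5 in smooth muscle and some epithelial basement membranes, read 6.16, 6.58 and 6.79 with E. coli supernatant, against 5.98, 5.94 and 5.42 with medium. The rise was 0.73 ± 0.19 (adjusted p 0.0058), and the groups did not overlap. A second COL4A6 probe set read 4.42, 4.39 and 3.68 with E. coli supernatant, against 1.26, 1.51 and 1.73 with medium, which is under the floor, so it entered the test through the treated arrays and a bound from the floor is at least 2.62-fold higher. COL4A5 rose by 0.41 ± 0.0895 with E. coli supernatant (adjusted p 0.0016), by 0.45, 0.33 and 0.39 in the co-cultures and by 0.40, 0.33 and 0.38 with the supernatants of NCFM, B. lactis 420 and Ls-33. Without replicate 2 of the 8 h medium 5 of its 6 probiotic calls were lost, leaving NCFM cells, with rises of 0.25 to 0.33 for those lost. The B. lactis 420 co-culture call was also lost without its own replicate 2 (0.19), and the Ls-33 one without its replicate 1 (0.25). The supernatant calls were lost without either of their own arrays, and the B. lactis 420 one on leaving out any of 8 arrays in all. The second COL4A5 probe set did not reach the signal needed for a test of its own.

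Fibrillar collagens were mostly lower with E. coli supernatant, where 6 of 9 tested chains fell and none rose. Of all tested genes 27.8% fell and 36.3% rose there. The 6 hold COL1A2, whose treated mean was under the floor, so that it entered the test through the medium arrays. COL5A3, a chain of the type V fibrils that nucleate and limit fibril width, read 3.97, 3.65 and 3.74 with E. coli supernatant, against 5.54, 5.51 and 5.72 with medium. It fell by 1.81 ± 0.15 (3.50-fold, adjusted p 6.77e-07). Its partner chain COL5A1 read 5.12, 4.77 and 5.43, against 6.66, 6.21 and 6.40 with medium, a change of -1.31 ± 0.19 (adjusted p 6.05e-05). COL5A2 changed by -0.50 (adjusted p 2.79e-04). The treated arrays of all 3 chains were below the medium arrays.

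COL27A1, a fibrillar chain of cartilage, read 6.54, 6.73 and 6.59 with E. coli supernatant, against 8.21, 8.01 and 8.26 with medium, and fell by 1.54 ± 0.11 (2.91-fold, adjusted p 2.39e-07). Both other COL27A1 probe sets tested fell, by 2.15 and by 0.82. COL1A1, the major chain of type I fibrils, read 10.26, 10.24 and 10.23 with E. coli supernatant, against 11.10, 11.25 and 11.09 with medium, and fell by 0.90 ± 0.060 (adjusted p 1.14e-07). Of its other tested probe sets 2 fell, by 1.03 and by 0.68, and 1 changed by -0.31, not called. COL1A2, the other type I chain, read 2.73, 2.40 and 2.77, against 3.56, 3.15 and 3.62. Its treated mean was under the floor, and a bound from the floor is at least 1.59-fold lower. COL2A1, COL3A1 and COL11A2 changed by -0.23, -0.07 and -0.02, not called.

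In the co-cultures COL3A1, which mixes with type I in distensible tissue, showed the largest fibrillar change. It read 5.81 and 6.17 with NCFM cells, 5.57 and 5.67 with B. lactis 420 cells and 5.82 and 5.25 with Ls-33 cells, against 6.59 and 6.63 with medium. The changes were -0.62, -0.99 and -1.07 (SE 0.17, adjusted p 0.0081, 1.57e-04 and 5.52e-05). Without replicate 1 of the NCFM co-culture that change was -0.44 (adjusted p 0.099). The supernatant arrays read 6.83 to 7.06, all above the medium, with changes of 0.23, 0.39 and 0.33 that were not called. The other tested COL3A1 probe sets had changes from -0.75 to -0.35 in the co-cultures, of which the NCFM change of -0.75 was called.

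COL5A3 read 5.60 and 5.38 with NCFM cells, 5.13 and 5.28 with B. lactis 420 cells and 5.11 and 5.05 with Ls-33 cells, against 6.11 and 5.75 with medium. It was called with B. lactis 420 (-0.72, adjusted p 0.0024) and Ls-33 (-0.85, adjusted p 5.01e-04), and NCFM gave -0.43 (adjusted p 0.051). Without replicate 1 of the medium the B. lactis 420 change was -0.54 and its call was lost. The other COL5A3 probe set was called lower with Ls-33 cells (-0.61, limma adjusted p 0.013). It was not called with B. lactis 420 cells (-0.39) or NCFM cells (-0.14). COL27A1 read 6.74 and 6.53 with NCFM cells, 6.49 and 6.32 with B. lactis 420 cells and 5.65 and 5.65 with Ls-33 cells, against 6.17 and 6.58 with medium. It fell with Ls-33 cells by 0.72 (adjusted p 0.0012), and the NCFM and B. lactis 420 arrays overlapped the medium. Another COL27A1 probe set was not called with Ls-33 cells (-0.56, adjusted p 0.090) and was lower with the NCFM, B. lactis 420 and Ls-33 supernatants, by -0.83, -1.19 and -1.34. The third tested probe set gave -0.12 with Ls-33 cells and -0.35, -0.0011 and -0.16 with the supernatants, none called. The probe set that stood for the gene gave -0.40, -0.46 and -0.43 there, not called.

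COL5A1 read 5.89 and 5.97 with B. lactis 420 supernatant, against 6.47 and 6.65 with medium, a change of -0.63 (adjusted p 0.012). It was also called with NCFM supernatant (-0.55) and Ls-33 cells (-0.47), and all 3 calls were lost without replicate 2 of the medium or without either of their own arrays, apart from NCFM replicate 1. Without NCFM supernatant replicate 2 the change was -0.32 (adjusted p 0.30). Another COL5A1 probe set read the other way in the last 2, by 0.13 and 0.34, not called. The third probe set read the same way there, by -0.27 and -0.15, also not called. COL2A1, the cartilage fibril chain, read 3.29 and 2.80 with Ls-33 supernatant, against 3.33 and 4.17 with medium. Its change of -0.70 (adjusted p 0.037) became -0.29 without replicate 2 of the medium (adjusted p 0.47) and -0.46 without replicate 2 of the treated arrays (adjusted p 0.35), neither called.

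Smaller fibrillar changes ran upward in the co-cultures. COL1A1 rose by 0.33 (NCFM), 0.19 (B. lactis 420) and 0.32 (Ls-33). None of its 3 other tested probe sets was called in a co-culture, and their changes ran from -0.15 to 0.65 with B. lactis 420 cells and from -0.11 to 0.46 with Ls-33 cells. The B. lactis 420 call was lost without replicate 2 of the medium (0.12, adjusted p 0.23) or of the co-culture (0.15, adjusted p 0.15). COL5A2 rose by 0.28 with B. lactis 420 cells and by 0.25 with Ls-33 cells, and changed by -0.32 with NCFM supernatant and by -0.25 with Ls-33 supernatant. Each of these was lost without replicate 2 of the medium, with changes of 0.27, 0.24, -0.33 and -0.26 in that order. The other COL5A2 probe set changed by -0.09 (NCFM), 0.27 (B. lactis 420) and 0.05 (Ls-33) in the co-cultures, none called. With the supernatants of the same strains it was called lower, by -0.48, -0.44 and -0.59 (limma adjusted p 0.016, 0.020 and 0.0027). COL11A2, a cartilage fibril chain, rose by 0.46 with NCFM cells (adjusted p 0.049), a call lost on leaving out any of 12 arrays, with changes of 0.25 to 0.46.

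**Figure D3:**
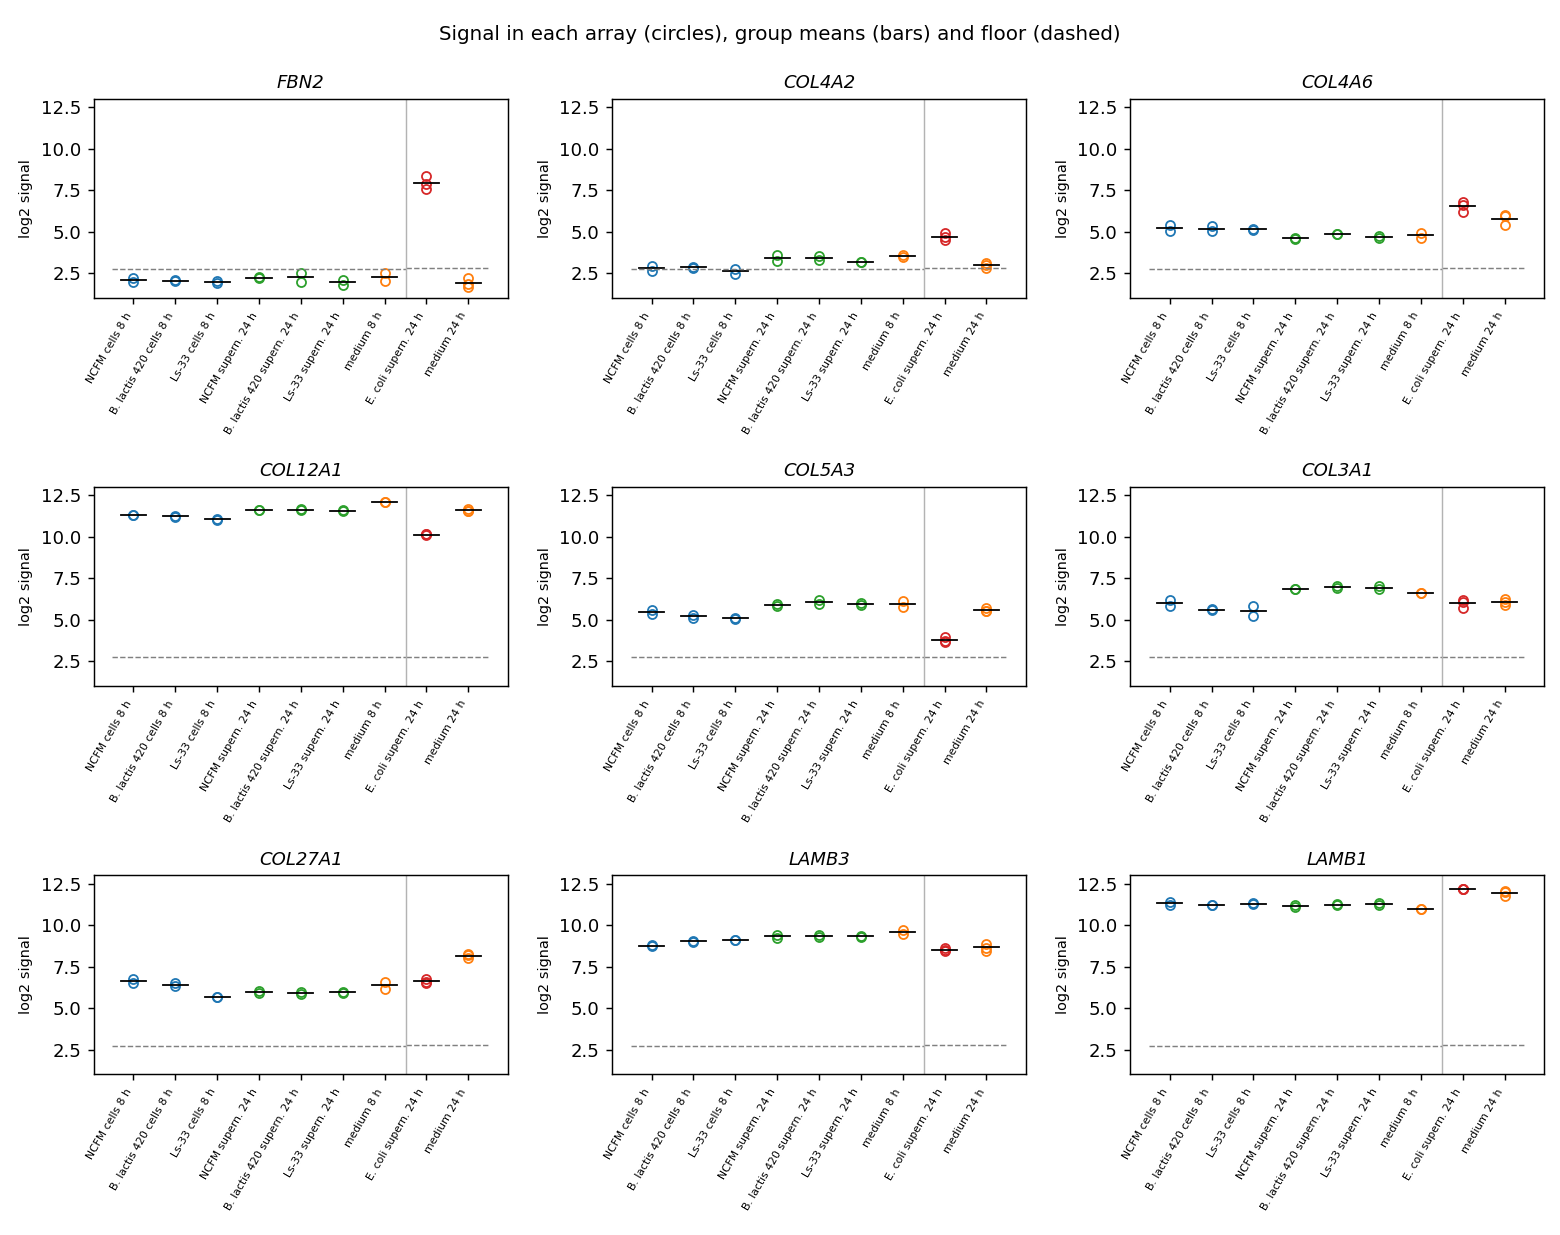
Log2 signal of 9 members in each array (circles) with group means (bars) and the floor (dashed), treatments left of their medium and the array sets parted by a line. FBN2 lies under the floor outside the E. coli supernatant, COL12A1 is lower than medium in each treated array, and COL27A1 is lowest with Ls-33 cells in the co-cultures.

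Type VI and fibril-associated chains fell most clearly with E. coli supernatant, and COL12A1 fell in all comparisons. COL12A1, which bridges fibrils to the surrounding matrix, read 10.16, 10.18 and 10.09 with E. coli supernatant, against 11.59, 11.69 and 11.58 with medium, and fell by 1.48 ± 0.057 (2.79-fold, adjusted p 1.36e-09). It read 11.31 and 11.34 with NCFM cells, 11.24 and 11.22 with B. lactis 420 cells and 11.07 and 11.04 with Ls-33 cells, against 12.12 and 12.12 with medium. The falls were by 0.80, by 0.89 and by 1.07 (SE 0.043, adjusted p 3.80e-11, 5.51e-12 and 3.01e-13). With the supernatants it read 11.57 to 11.66, a change of -0.52, -0.49 and -0.54 in the order NCFM, B. lactis 420 and Ls-33. Of its other probe sets, both that were bright also fell in all 7 comparisons. Their falls were by 1.25 and by 2.30 with E. coli supernatant.

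COL16A1, found where fibrils meet microfibrils, read 3.73, 3.60 and 3.32 with E. coli supernatant, against 4.76, 5.29 and 5.38 with medium, a change of -1.59 ± 0.19 (3.02-fold, adjusted p 1.28e-05). COL9A3, a chain of cartilage type IX collagen, read 3.65, 3.82 and 3.78, against 4.28, 4.32 and 4.71, a change of -0.68 (adjusted p 0.0021). COL21A1 was the member of this class that rose, with 9.37, 9.33 and 9.38 against 8.91, 8.88 and 9.12, by 0.39 (adjusted p 0.0014). In the co-cultures COL21A1 read 6.59 and 6.54 with NCFM, 6.50 and 6.74 with B. lactis 420 and 6.49 and 6.41 with Ls-33, against 7.15 and 7.15 with medium. It fell by 0.58, by 0.53 and by 0.70 (adjusted p 8.37e-04, 0.0018 and 1.21e-04), and the supernatant changes of 0.24, 0.18 and 0.09 were not called.

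All 3 tested type VI chains fell with E. coli supernatant, where 27.8% of all tested genes fell. COL6A1 read 7.39, 7.30 and 7.44, against 8.83, 8.58 and 8.92 with medium, a change of -1.40 ± 0.11 (2.64-fold, adjusted p 3.21e-07). COL6A2 read 5.09, 5.16 and 4.68, against 5.64, 5.84 and 5.91 with medium, a change of -0.82 ± 0.17 (adjusted p 9.20e-04), while its other probe set changed by -0.32 and was not called. COL6A3 read 2.70, 2.95 and 2.91, against 4.14, 4.11 and 4.38 with medium, a change of -1.36 ± 0.14 (adjusted p 4.54e-06), which brought it near the floor. These chains assemble with each other into one monomer. In the co-cultures COL6A1 fell by 0.29 with B. lactis 420 cells (adjusted p 0.0086) and by 0.44 with Ls-33 cells (adjusted p 2.39e-04). COL6A1 read 8.39 and 8.35 with NCFM cells, 8.22 and 8.22 with B. lactis 420 cells and 8.06 and 8.09 with Ls-33 cells, against 8.53 and 8.50 with medium. The B. lactis 420 call was lost without replicate 1 of the medium (-0.27). None of the other tested COL6A1 probe sets was called with B. lactis 420 cells, with changes from -0.41 to -0.17. With Ls-33 cells a change of -0.65 was called (limma adjusted p 0.026), and the rest ran from -0.40 to 0.0094, not called.

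Of the other collagens, 3 of 4 tested fell with E. coli supernatant, where 27.8% of all tested genes fell. COL18A1, the basement membrane collagen that holds endostatin, read 7.48, 7.48 and 7.48, against 8.46, 7.97 and 8.32 with medium, a change of -0.77 ± 0.12 (adjusted p 1.65e-04). COL7A1, which forms the anchoring fibrils under epithelia, read 2.75, 3.04 and 2.96, against 4.04, 3.63 and 3.46 with medium, a change of -0.79 ± 0.16 (adjusted p 0.0011). COL26A1 read 2.79, 2.78 and 2.76, against 3.86, 3.32 and 3.43 with medium, a change of -0.76 ± 0.15 (adjusted p 9.42e-04), so the treated level was at the floor. Its other probe set changed by -0.22, not called. COL28A1 changed by -0.30 (adjusted p 0.068). No other collagen was called in the probiotic set, where COL7A1 changed by 0.51 with B. lactis 420 cells (adjusted p 0.059).

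FBN2, the fibrillin of developing elastic tissue, had the largest change of any member. It read 7.88, 8.32 and 7.56 with E. coli supernatant, against 2.19, 1.66 and 1.85 with medium. The medium mean was under the floor, so the gene passed the filter through the treated arrays. No test of it is used as support, and a bound from the floor is at least 35.4-fold higher. This reading came from 1 of 3 FBN2 probe sets. The other two read 1.33 to 1.74 with E. coli supernatant and 1.47 to 1.97 with medium, under the floor in all 20 arrays. In the probiotic set FBN2 read 1.80 to 2.50 in all groups. FBN1, the main fibrillin of adult tissue, was under the floor in all 9 groups.

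The 3 strains were also compared with each other as live cells. The moderated F-test over these groups called 4 of 27 members, COL27A1, COL12A1, COL6A1 and LAMB3, where 13.7% of all tested genes were called. This count is near that share, so nothing particular to these genes is read from it. The F-test adjusted p was 7.06e-04 for COL12A1, 0.023 for LAMB3 and 0.049 for COL6A1, the last close to the threshold. COL27A1 differed most, with group means spread over 0.99 on the log2 scale (adjusted p 6.46e-04). It was lower with Ls-33 cells than with NCFM cells by -0.99 (adjusted p 2.57e-04) and than with B. lactis 420 cells by -0.75 (adjusted p 0.0082). COL12A1 was also lower with Ls-33 cells, by -0.27 than with NCFM cells and by -0.18 than with B. lactis 420 cells. COL6A1 differed by -0.30 and LAMB3 by 0.34 between Ls-33 and NCFM cells. No member was called between B. lactis 420 and NCFM cells by limma, where 3.03% of all genes were called (2.28% higher and 0.759% lower) and 6 members had an unadjusted p under 0.05. Between Ls-33 and NCFM cells 14.7% of all genes were called (8.13% higher and 6.55% lower), and between Ls-33 and B. lactis 420 cells 5.57% (2.87% and 2.7%). Set together, live cells against supernatants gave 17 of 27 members called, 9 higher and 8 lower, against 55.8% of all genes (30.6% and 25.2%), and time (8 h against 24 h) cannot be told apart from the form of the bacteria there. The number of members called by the F-test was 2 without replicate 2 of the NCFM co-culture.

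Genes that work with these proteins were counted from lists chosen for their roles. For reading these counts, 18.4%, 16.9% and 19.3% of all tested genes fell and 16.8%, 18.3% and 19.4% rose in the NCFM, B. lactis 420 and Ls-33 co-cultures, while 27.8% fell and 36.3% rose with E. coli supernatant. With the probiotic supernatants 6%, 9.22% and 8.14% fell and 5.29%, 5.98% and 8.48% rose. Cross-linking and maturation genes were led by LOX, the lysyl oxidase that cross-links collagen and elastin. LOX had mean log2 signals of 8.63 (NCFM), 8.35 (B. lactis 420) and 8.51 (Ls-33) in the co-cultures, against 11.29 with medium, changes of -2.66, -2.94 and -2.77. With E. coli supernatant it had 7.32, against 11.14 with medium, a change of -3.82 ± 0.23 (adjusted p 3.98e-08), and with the probiotic supernatants it rose by 0.49, 0.35 and 0.41. LOXL1, which cross-links elastin, fell by 1.60, by 1.91 and by 1.95 in the co-cultures and by 0.95 with E. coli supernatant. PCOLCE, which speeds removal of the collagen C-propeptide, fell by 0.96, by 0.86 and by 0.89 in the co-cultures and by 1.00 with E. coli supernatant. Of the 10 tested genes of this list, 4, 4 and 3 fell in the co-cultures and 5 with E. coli supernatant, while 3 rose with Ls-33 cells and 3 with E. coli supernatant, the last a smaller share than the 36.3% of all genes. With the probiotic supernatants 1, 2 and 2 rose and 0, 0 and 2 fell.

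Among genes of collagen modification and folding, 10, 10 and 8 of 24 fell in the NCFM, B. lactis 420 and Ls-33 co-cultures and 1 rose in each, while 10 of 23 fell and 4 rose with E. coli supernatant. Of all tested genes 16.9% to 19.3% fell in the co-cultures and 27.8% with E. coli supernatant. With the probiotic supernatants 4, 3 and 3 of 24 rose and 0, 1 and 2 fell. P4HA1, a prolyl hydroxylase subunit that stabilises the triple helix, fell by 1.06, by 0.99 and by 0.91 in the co-cultures and by 0.99 with E. coli supernatant. PLOD2, the telopeptide lysyl hydroxylase, fell by 0.27, by 0.43 and by 0.26, and by 1.91 with E. coli supernatant. SERPINH1, the collagen chaperone, fell by 0.79 with NCFM cells, by 0.32 with B. lactis 420 cells and by 0.94 with E. coli supernatant. With Ls-33 cells its change was -0.02.

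Of 9 tested partners of laminin and collagen, 4, 7 and 5 fell in the co-cultures and none rose, and 8 fell and 1 rose with E. coli supernatant, where 16.9% to 19.3% of all tested genes fell in the co-cultures and 27.8% with E. coli supernatant. With the probiotic supernatants 1 fell with each strain and 1 rose with Ls-33. SPARC, a collagen-binding protein, fell by 1.38, by 1.05 and by 0.98 in the co-cultures and by 0.60 with E. coli supernatant. NID1, which links laminin to type IV collagen, fell by 1.25 with E. coli supernatant and by 0.24 with B. lactis 420 cells. FRAS1, a protein of the epithelial basement membrane, fell by 0.56, by 0.46 and by 0.58 in the co-cultures and by 1.12 with E. coli supernatant. Among 12 microfibril partners in the co-cultures 5, 3 and 5 fell and 1 rose, with B. lactis 420. With the probiotic supernatants 0, 2 and 1 fell and 1 rose with each strain. With E. coli supernatant 4 of 13 fell and 3 rose, against 27.8% and 36.3% of all genes, and THSD4 is 1 of the 3. It promotes fibrillin microfibrils and had a mean of 3.89 against 2.68 with medium, which is under the floor, so it entered the test through the treated arrays and its bound is at least 2.16-fold higher. MFAP3 rose by 0.90 and FBLN1 fell by 1.15.

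Receptors were called in both directions with live cells and E. coli supernatant. Of 15 tested, 3, 3 and 6 rose and 3, 3 and 4 fell in the NCFM, B. lactis 420 and Ls-33 co-cultures, while 3 rose and 5 fell with E. coli supernatant. With the probiotic supernatants 3, 5 and 6 rose and 0, 0 and 1 fell. Of all tested genes 5.29%, 5.98% and 8.48% rose and 6%, 9.22% and 8.14% fell with these supernatants. With Ls-33 cells 19.4% of all tested genes rose and 19.3% fell, and with E. coli supernatant 36.3% rose and 27.8% fell. The 3 rising and 3 falling with NCFM and with B. lactis 420 cells are near the shares of all genes, 16.8% and 18.4%, and 18.3% and 16.9%. ITGAV, an integrin chain that binds fibronectin, vitronectin and the latency peptide of TGF-beta, rose by 0.68, 0.75 and 1.04 in the co-cultures and by 1.24 with E. coli supernatant. ITGA2, a chain of a collagen-binding integrin, rose by 0.90 with Ls-33 cells, by 0.65, 0.73 and 0.79 with the supernatants of NCFM, B. lactis 420 and Ls-33 and by 0.40 with E. coli supernatant. SDC4, a heparan sulfate proteoglycan of focal adhesions, rose by 0.21, 1.08 and 1.26 in the co-cultures.

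**Figure D4:**
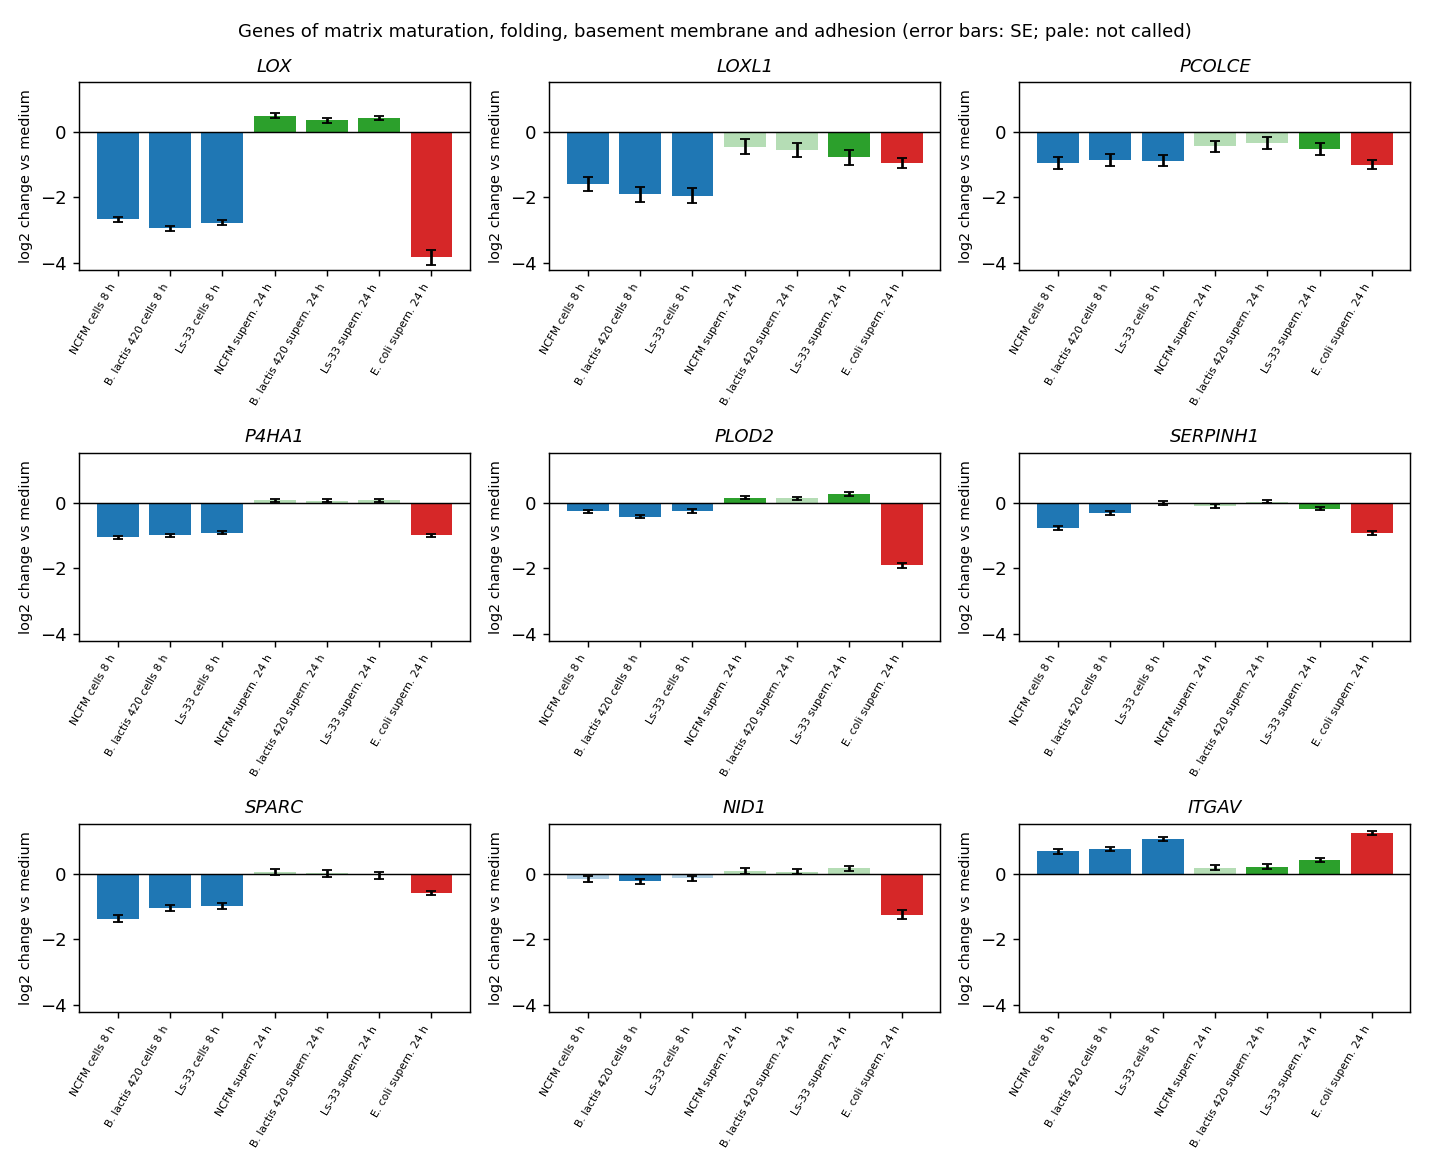
Log2 change against medium (bars, with the standard error of the fit) for 9 genes of matrix maturation, folding, basement membrane and adhesion in the 7 comparisons; pale bars were not called. LOX is lower with live cells of each strain and with E. coli supernatant and higher with the probiotic supernatants, while ITGAV is higher in all 7, with the NCFM supernatant bar not called.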

How the data were processed

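Affymetrix HG-U133 Plus 2.0 arrays were hybridised with RNA of 9 groups, 20 arrays in all. The deposited values are log2 probe-set signals that the authors made with RMA, per the submitters' processing notes, of which no version is named. Whether the array sets were normalized jointly is not stated there. Detection calls were not used here, and the number of arrays limits the precision. Probe sets were named from the platform annotation, with 1801 that carry several symbols left out, and symbols were updated through Entrez identifiers to RefSeq on GRCh38.p14. The probe set with the highest mean stood for a gene, those ending in _x_at only where no other existed. Genes with a mean at or above the 40th percentile were tested with limma 3.58.1 in R 4.3.3 (lmFit, eBayes with a trend), with Benjamini-Hochberg adjustment over 11865 genes. The 14 probiotic arrays made 1 fit, so that groups of 2 shared a spread, and the 6 E. coli arrays another. Errors are standard errors of the fits. Members changed at least 1.5-fold and called are given by array. Of each list of partner genes, up to 3 called genes with the lowest adjusted p are named. Members, lists, tests and the naming rule were chosen with earlier results of these data known. The fits were tested on simulated data. Alternatives were other filters, probe sets, normalization and fits, the replicate block and leaving out each array.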

Additional observations from a re-analysis of the deposited data

Results flagged for a closer look

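Live cells and supernatants of the same strains were set against each other in 1 contrast, the mean of the 3 co-cultures minus the mean of the 3 supernatants in log2 units, and limma called 17 of 27 members, where 55.8% of all tested genes were called. Higher with live cells were COL1A1 (0.26), COL5A2 (0.44), COL27A1 (0.29), COL4A6 (0.47), COL7A1 (0.34), COL18A1 (0.38), LAMA1 (0.37), LAMA5 (0.40) and LAMC1 (0.16). On the probe set that stood for COL27A1 the strains differed, so its pooled value does not describe each of them. Its means with live cells and with supernatant were 6.64 and 5.98 for NCFM and 6.41 and 5.91 for B. lactis 420. For Ls-33 the order was opposite on this probe set, 5.65 with live cells and 5.94 with supernatant. Both other tested COL27A1 probe sets were higher with live cells for Ls-33 too. They read 4.83 against 4.06 and 3.65 against 3.61, so the opposite order rests on the probe set read. The other COL18A1 probe set was higher with live cells for NCFM alone, 6.66 against 6.27. It was lower for Ls-33 (6.20 against 6.66) and B. lactis 420 (6.34 against 6.57), so this direction also depends on the probe set. For Ls-33, other COL1A1 probe sets were lower with live cells, 4.27 against 4.65 and 4.98 against 5.24. A further COL1A1 probe set was higher, 8.48 against 8.13. All 17 changes listed are those of the probe set that stood for the gene. Lower with live cells were COL3A1 (-1.21), COL5A3 (-0.71), COL4A2 (-0.58), COL6A1 (-0.29), COL6A3 (-0.48), COL12A1 (-0.40), COL21A1 (-0.77) and LAMB3 (-0.37). COL3A1 averaged 5.71 in the co-cultures, 6.92 in the supernatants and 6.61 with medium, so that the means lay on opposite sides of the medium. COL21A1 had 6.55 and 7.32 against 7.15, and COL5A2 9.19 and 8.75 against 8.997. Live cells were given for 8 h and supernatants for 24 h, so the form of the bacteria and the time cannot be told apart.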

How the results depend on the processing

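Calls of members in the comparisons with medium were refitted under other settings, and direction was kept by all of them except where another probe set stood for the gene. With quantile normalization of all arrays 73 of 75 calls held, without a trend in eBayes 60 of 75, without the filter 69 of 75, and with the replicate block 74 of 75. Other probe sets of the same genes kept 35 of 89 calls, with 40 no longer called and 14 of opposite sign, and the probe set of the highest interquartile range kept 51 of 68, with 15 no longer called and 2 of opposite sign. With that replicate block B. lactis 420 supernatant had 1 member higher in place of 2. Replicate numbers did not pair the arrays, since correlations of deviations from the group means were -0.10 to 0.06 over 21 pairs of groups in the probiotic set and -0.14 to 0.04 over 3 pairs of arrays in the E. coli set, none above 0.1. Without the filter B. lactis 420 supernatant had 1 member higher and Ls-33 supernatant 1 lower. A filter at the 60th percentile left 9 members lower with E. coli supernatant, since fewer members were tested, and put 33 members at background in all groups in place of 20. With the probe set of the highest interquartile range, members higher in the co-cultures were 3 (NCFM), 4 (B. lactis 420) and 1 (Ls-33), and 0, 1 and 1 with the supernatants in that order of strains. There COL5A1 read 0.34 with Ls-33 cells and 0.13 with NCFM supernatant, the values of another of its probe sets. Other probe sets tested on their own were restricted, after the data were seen, to those that reach the floor. Among them COL12A1 read 0.42 with NCFM cells and 0.0138 and 0.0170 with NCFM supernatant from dim probe sets, and LAMB1 -0.0807 (NCFM), -0.0180 (B. lactis 420) and -0.0752 (Ls-33) in the co-cultures and -0.0091 with Ls-33 supernatant. LAMC1 read -0.0502 with NCFM cells, COL1A1 -0.15 with B. lactis 420 cells and -0.0385 and -0.11 with Ls-33 cells, COL5A1 0.34 and 0.13 as above, and COL6A1 0.0094 with Ls-33 cells. The cause of these differences between probe sets was not tested. Leaving out each array in turn gave 3 to 6 members higher and 5 to 6 lower with NCFM cells, 2 to 7 and 5 to 7 with B. lactis 420 cells, and 2 to 4 and 8 to 10 with Ls-33 cells. It gave 0 to 2 and 2 to 4 with NCFM supernatant, 0 to 2 and 1 to 4 with B. lactis 420 supernatant, 0 to 2 and 1 to 5 with Ls-33 supernatant, and 5 to 6 and 16 to 20 with E. coli supernatant. The contrast of live cells and supernatants had 8 to 10 higher and 8 to 9 lower, and the F-test 2 to 4. Where a group of 2 lost an array, the spread of the lone array was assumed equal to that elsewhere in the fit.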
